A study of Homo sapiens and Mus musculus with 29 samples.

Results

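The Notch pathway was followed through 10 of its genes: the receptors NOTCH1, NOTCH2 and NOTCH3, the ligands JAG1 and JAG2, and the target genes HES1, HEY1, HEY2, HEYL and NRARP. They were chosen by symbol, and all 10 were found among the 58719 gene IDs of the human RNA-seq table and, as mouse orthologs, among the 54446 gene IDs of the mouse table. HEY1 had been picked for its pattern with FOXA1, so that its values in human tumors are given as a description. The human samples are 21 tumors and metastases of HPAF-II, an established human pancreatic ductal adenocarcinoma (PDAC) line, injected into the tail of the pancreas of NSG mice, an immunodeficient strain that lacks functional lymphocytes, at around 8 weeks of age. They comprise 3 control tumors (Cas-9-EV), 3 FOXA1-OE tumors (Cas-9 + FOXA1, with lentiviral overexpression), 4 tumors and 2 metastases labeled HNF4G-KO (CRISPR knockout with EV), and, for both manipulations together (HNF4G-KO + FOXA1-OE), 5 tumors and 4 metastases. All 4 kinds of cell had thus been through CRISPR, the controls included, and HNF4G-KO cells were a pool of 3 clones with heterozygotic frameshift mutations. Every primary tumor came from a separate mouse, except tumors 2 and 3 of HNF4G-KO + FOXA1-OE, which shared a mouse and were averaged. Metastases were taken from the peritoneum for HNF4G-KO (2 mice), and from spleen, fat (2 samples) and peritoneum for HNF4G-KO + FOXA1-OE (3 mice). The mouse samples are 8 libraries of wild-type KPC lines, 4 of a line from a primary pancreatic tumor and 4 of a line from a matched liver metastasis.

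Notch receptors are single-pass membrane proteins that are cut when a ligand of the Jagged or Delta-like families on a neighboring cell binds them. The released intracellular domain enters the nucleus and joins the DNA-binding protein RBPJ, which switches on target genes of the HES and HEY families, themselves repressors of transcription, and NRARP, a feedback inhibitor of the complex. In the pancreas the pathway holds progenitor cells undifferentiated during development, and it is active again when acinar cells turn into ductal cells and in PDAC.

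RBPJ recognizes a core of TGGGAA. Promoter windows of 250 bases before the start of the gene were taken from RefSeq on GRCh38.p14 for 9 of the 10 members (HEY1 had none in the table), and both strands were searched. The core was present in 3 of these 9 windows, those of HES1, HEYL and HEY2, and in those of 2 further HES genes, HES5 and HES4. NOTCH1, NOTCH2, NOTCH3, JAG1, JAG2 and NRARP had none. Of all 35116 windows there, 20.8% held the core and 2.9% held it at least 2 times. The windows with 2 matches are printed on the strand of their gene, with the cores in capitals (TTCCCA where the core is on the opposite strand), because they belong to genes at opposite ends of the levels reported here. HES1 (chr3:194135898-194136147, + strand) had cores starting at -84 and -70, both on the strand of the gene and counted back from -1, the last base before the start. HES5 (chr1:2530264-2530513, - strand) had them at -224 and -80, and HEYL (chr1:39639644-39639893, - strand) at -178 and -99.
HES1: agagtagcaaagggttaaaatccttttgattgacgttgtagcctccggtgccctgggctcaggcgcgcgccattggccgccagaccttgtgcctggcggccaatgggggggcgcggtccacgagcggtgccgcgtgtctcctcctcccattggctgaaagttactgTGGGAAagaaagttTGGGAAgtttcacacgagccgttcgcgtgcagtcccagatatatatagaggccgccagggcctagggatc
HES5: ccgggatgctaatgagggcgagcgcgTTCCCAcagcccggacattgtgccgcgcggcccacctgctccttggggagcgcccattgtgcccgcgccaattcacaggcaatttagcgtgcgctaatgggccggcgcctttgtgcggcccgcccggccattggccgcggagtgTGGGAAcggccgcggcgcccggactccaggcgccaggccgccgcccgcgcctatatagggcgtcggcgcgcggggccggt
HEYL: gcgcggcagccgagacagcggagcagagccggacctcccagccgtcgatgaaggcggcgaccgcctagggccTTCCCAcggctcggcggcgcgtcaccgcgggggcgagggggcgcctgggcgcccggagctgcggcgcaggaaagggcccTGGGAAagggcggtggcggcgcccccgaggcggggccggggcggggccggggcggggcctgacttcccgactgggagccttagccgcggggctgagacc
The forkhead motifs TGTTTAC and TGTTTGC were found in 2.98% and 3.23% of all windows and in none of the 9. A match is a description of the letters and not a binding site.

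Depth, read from the spacing of low RPKM values (reads per kilobase of gene, scaled to the reads of the library), was 33.1 to 69.6 M reads in human libraries (median 54.5 M) and 30.1 to 44.4 M reads in mouse libraries (median 36.2 M). The most common low value was taken as worth 2 reads. If it stands for 1 independent fragment, the human library at the median depth had 27.3 M. The read numbers given for single genes are then lower in the same proportion. The HNF4G transcript went against its label, with 2.48 to 3.47 RPKM in control tumors and 5.72 to 8.42 RPKM in tumors labeled HNF4G-KO. In FOXA1-OE tumors FOXA1 was at 6.32, 8.18 and 0.763 RPKM, so that the library labeled FOXA1-OE tumor 3 lay within the range of the control tumors (0.519 to 0.932 RPKM). HNF4G-KO + FOXA1-OE tumors had 4.65 to 23.1 RPKM of it. Their metastases, however, had 0.535, 17.9, 1.30 and 1.55 RPKM, so that 3 of the 4 libraries labeled HNF4G-KO + FOXA1-OE metastasis lay within or below the range of HNF4G-KO tumors (1.26 to 1.87 RPKM). Epithelial markers of the line were high in all 21 human samples, with EPCAM at 195 to 549 RPKM. Among host markers, PECAM1 of endothelium was at 0.0544 RPKM or less and PTPRC of leukocytes at 0.331 RPKM or less, while the fibroblast gene COL1A1 reached 161 RPKM. The whole lists were not all low. The 10 endothelial genes summed to 2.91 to 13.2 RPKM, and the 6 leukocyte genes to 495 to 746 RPKM in control and HNF4G-KO tumors, 57.9 to 590 RPKM in FOXA1-OE tumors and 144 to 674 RPKM in HNF4G-KO + FOXA1-OE tumors, with 2 or 3 of the 6 reaching 1 RPKM. The part of host cells in the members' levels was not tested. Reads of mouse cells can align to human genes, and in such bulk samples fewer cells of a type and less RNA per cell cannot be told apart.

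HES1, a repressor that holds back differentiation, was the most abundant member in human samples, with a median of 41.6 RPKM over 21 samples, and JAG1 followed with 22.7 RPKM. JAG2 had a median of 5.38, NRARP 3.99, NOTCH3 3.92, NOTCH2 3.21, NOTCH1 2.36 and HEY1 1.10 RPKM. HEY2 and HEYL, which act in blood vessels and heart among other tissues, lay far lower, at medians of 0.0276 and 0.0256 RPKM. HES1 exceeded JAG1, and JAG1 exceeded JAG2, in 21 of 21 samples with ranges that did not overlap. JAG2 was above NRARP in 20 samples, NOTCH3 above NOTCH2 in 15 and NOTCH2 above NOTCH1 in 20, but each of these pairs had overlapping ranges, and NRARP was above NOTCH3 in only 7. RPKM values are per length of the gene, so these are comparisons of levels between genes. NOTCH2 is the least certain of them, because the NOTCH2NL genes are near-identical copies of a stretch of it.

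Summed over the 4 receptors, NOTCH3 took a median of 42.7% of the RPKM (24.3% to 54.1%), NOTCH2 33.4%, NOTCH1 24.9% and NOTCH4 1.57%. Among ligands JAG1 took a median of 77.6% and JAG2 18.1%. The Delta-like ligands DLL4 and DLL1 took 2.10% and 1.99%, and DLL3 was listed at 0 in 18 of 21 samples. The ligands of HPAF-II were thus mostly Jagged, while its receptors were spread over 3 genes.

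**Figure D1:**
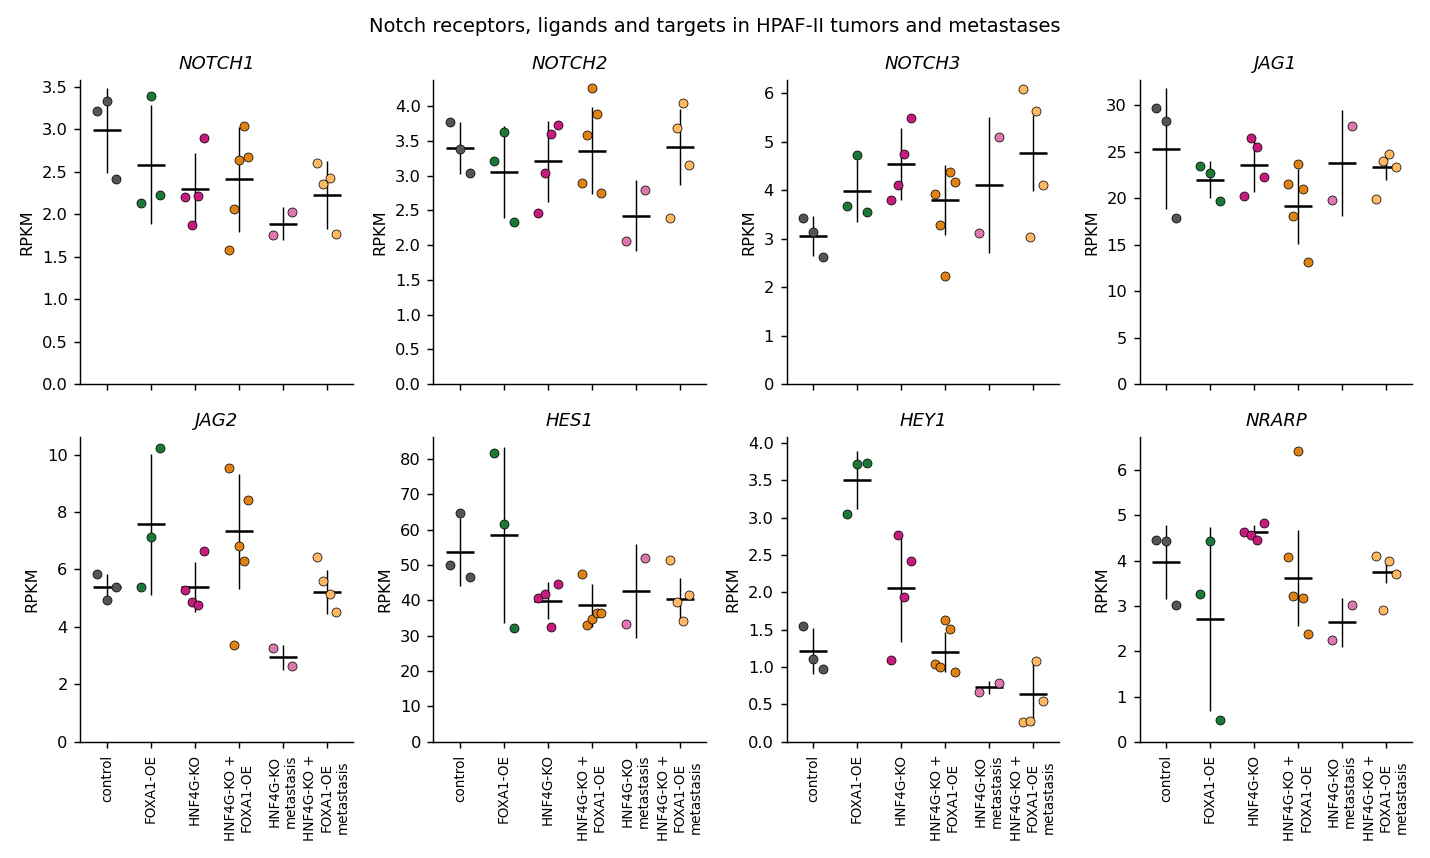
RPKM (vertical axes, each starting at 0) of 8 members in the 21 HPAF-II samples, 1 point a sample, by group (horizontal axes). Thick bars are means and thin lines SDs over mice. HEY1 is highest in the 3 FOXA1-OE tumors (3.05 to 3.74 RPKM), NOTCH3 lies higher in all 4 HNF4G-KO tumors than in all 3 control tumors, and JAG2 is lower in both HNF4G-KO metastases than in all 4 HNF4G-KO tumors.

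NOTCH3 (ENSG00000074181.8, chromosome 19, 15159038 to 15200995 in the GENCODE annotation of GRCh38), the receptor best known from the mural cells around vessels but also present in PDAC cells, was at 3.43, 3.14 and 2.62 RPKM in control tumors and at 3.80, 4.12, 4.74 and 5.50 RPKM in tumors labeled HNF4G-KO. All 4 of the latter lay above all 3 of the former. In FOXA1-OE tumors it was at 3.68, 4.72 and 3.54 RPKM, and in HNF4G-KO + FOXA1-OE tumors at 3.92, 3.29, 2.24, 4.38 and 4.16 RPKM. The FOXA1-OE values lay just above the controls, and the HNF4G-KO + FOXA1-OE values overlapped with every other group of tumors. On the log2(RPKM + 1) scale, the difference between HNF4G-KO and control tumors was 0.44 (standard error 0.16, 95% interval 0.09 to 0.80), which did not pass the threshold of 0.05 in limma across 14269 genes (adjusted p = 0.0905). The exact two-sided permutation test over mice gave p = 0.0571, which is its lower limit for 3 against 4 mice. With only these 2 groups in the limma fit the adjusted p was 0.0272, and with the level of host markers as a covariate it was 0.0406 at a difference of 0.56, so that the call depended on the fit. Those fits also called more of all 14269 genes, 5592 and 2838 against 1736 in the main fit. Of the 9 other mural markers, the summed RPKM went the opposite way, from 15.9 to 21.9 in control tumors to 9.46 to 11.2 in HNF4G-KO tumors. Among defining mural genes, PDGFRB was at 0.0745 to 1.26, RGS5 at 0.0742 to 0.418 and ACTA2 at 2.31 to 34.9 RPKM over all human samples. Only 2 of the 9 markers reached 1 RPKM in control tumors, and 2 did in HNF4G-KO tumors. The part of host cells in the level of NOTCH3 was not tested.

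NOTCH1 (ENSG00000148400.10, chromosome 9, 136494433 to 136546048) was at 3.22, 3.33 and 2.42 RPKM in control tumors, 2.13, 3.39 and 2.22 RPKM in FOXA1-OE tumors and 2.20, 1.87, 2.21 and 2.89 RPKM in HNF4G-KO tumors. In HNF4G-KO + FOXA1-OE tumors it ranged from 1.58 to 3.04 RPKM. The groups overlapped, and the difference of HNF4G-KO from control was -0.28 (95% interval -0.67 to 0.12, limma adjusted p = 0.324). NOTCH2 (ENSG00000134250.19, chromosome 1, 119911553 to 120100779) was the steadiest receptor across tumor groups, with means of 3.40 ± 0.370 RPKM (SD, n = 3 mice) in control, 3.05 ± 0.659 (n = 3) in FOXA1-OE, 3.21 ± 0.581 (n = 4) in HNF4G-KO and 3.36 ± 0.626 RPKM (n = 4) in HNF4G-KO + FOXA1-OE tumors. Its 4 groups all overlapped, and the interval of its difference between HNF4G-KO and control tumors ran from -0.43 to 0.29.

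JAG1 (ENSG00000101384.12, chromosome 20, 10637684 to 10673999), the main ligand, was at 29.8, 28.4 and 17.9 RPKM in control tumors and 23.5, 22.7 and 19.8 RPKM in FOXA1-OE tumors. The HNF4G-KO tumors had 20.2, 26.5, 25.5 and 22.3 RPKM and the HNF4G-KO + FOXA1-OE tumors 21.5, 18.1, 23.7, 21.1 and 13.1 RPKM. All groups overlapped. The largest difference of JAG1 among tumor groups, of HNF4G-KO + FOXA1-OE from control, was -0.38 (95% interval -0.83 to 0.07, limma adjusted p = 0.343). JAG2 (ENSG00000184916.8, chromosome 14, 105140982 to 105168824), the second ligand, was at 5.84, 4.93 and 5.38 RPKM in control tumors and at 5.28, 4.88, 4.75 and 6.63 RPKM in HNF4G-KO tumors. With FOXA1-OE it was more scattered, at 5.37, 7.14 and 10.2 RPKM in FOXA1-OE tumors and 9.52, 3.38, 6.80, 6.29 and 8.42 RPKM in HNF4G-KO + FOXA1-OE tumors. Its mean was higher by 0.39 in FOXA1-OE than in control tumors (limma adjusted p = 0.840) and by 0.35 in HNF4G-KO + FOXA1-OE than in HNF4G-KO tumors (limma adjusted p = 0.318), and neither difference passed the test. The highest JAG2 value, 10.2 RPKM, was in the FOXA1-OE library whose FOXA1 was at control levels.

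HES1 (ENSG00000114315.3, chromosome 3, 194136148 to 194138732), the target with 2 RBPJ cores in the window printed above, was at 49.98, 64.7 and 46.7 RPKM in control tumors and at 40.7, 41.8, 32.6 and 44.6 RPKM in HNF4G-KO tumors. Each HNF4G-KO tumor was below each control tumor, by a mean of -0.42 on the log2(RPKM + 1) scale (standard error 0.26, limma adjusted p = 0.297), and the exact permutation test again gave its smallest value of p = 0.0571. The FOXA1-OE tumors were spread over the whole range, at 81.7, 61.5 and 32.1 RPKM. HNF4G-KO + FOXA1-OE tumors were at 47.5, 33.1, 34.6, 36.5 and 36.6 RPKM, close to the HNF4G-KO tumors. Between HNF4G-KO + FOXA1-OE and FOXA1-OE tumors HES1 differed by -0.50 (95% interval -1.06 to 0.06, limma adjusted p = 0.265), and without FOXA1-OE tumor 3 the difference was -0.87 and passed the test (limma adjusted p = 0.0238). This call therefore rests on whether that library is kept.

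NRARP (ENSG00000198435.3, chromosome 9, 137299631 to 137302271), the feedback inhibitor, was at 4.45, 4.42 and 3.02 RPKM in control tumors and at 4.64, 4.57, 4.45 and 4.84 RPKM in HNF4G-KO tumors. The groups touched without overlapping, and the difference of 0.19 was small (95% interval -0.53 to 0.92, limma adjusted p = 0.728). The FOXA1-OE tumors had 3.26, 4.43 and 0.472 RPKM, the last being the lowest NRARP of all 21 samples and from tumor 3. HNF4G-KO + FOXA1-OE tumors ranged from 2.38 to 6.42 RPKM.

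HEY1 (ENSG00000164683.16), a repressor induced by Notch, was at 3.05, 3.72 and 3.74 RPKM in FOXA1-OE tumors, above the other 18 human samples. Control tumors were at 1.56, 1.11 and 0.979 RPKM, HNF4G-KO tumors at 1.10, 2.77, 1.94 and 2.43 RPKM and HNF4G-KO + FOXA1-OE tumors at 1.04, 1.00, 1.63, 1.51 and 0.937 RPKM. HNF4G-KO + FOXA1-OE tumors thus overlapped with control tumors, although both manipulations alone went with higher levels in most tumors. The mean was 3.50 ± 0.390 RPKM (SD, n = 3 mice) in FOXA1-OE tumors, 2.88 times that of control tumors, and 2.06 ± 0.724 RPKM (n = 4) in HNF4G-KO tumors, 1.70 times that of control tumors. In HNF4G-KO + FOXA1-OE tumors it was 1.202 ± 0.262 RPKM (n = 4), 0.990 times that of control tumors. As log2(RPKM + 1), FOXA1-OE differed by 1.03 from control in cells without the knockout label and by -0.45 in cells with it, and these differences lay 1.48 apart. Because this pattern is the reason for which HEY1 was picked, no test is given. The values rest on 53 to 615 reads, with a median of 174.

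Single samples show how HEY1 and FOXA1 lay side by side. FOXA1-OE tumor 3 had 3.74 RPKM of HEY1 at 0.763 RPKM of FOXA1, and the HNF4G-KO + FOXA1-OE tumor with the highest FOXA1, 23.1 RPKM, had 1.63 RPKM of HEY1. Metastases were at the low end, at 0.667 and 0.794 RPKM for HNF4G-KO and at 0.269, 0.276, 1.08 and 0.547 RPKM for HNF4G-KO + FOXA1-OE. Both HNF4G-KO metastases were below all 4 HNF4G-KO tumors, and 3 of 4 HNF4G-KO + FOXA1-OE metastases were below all 5 tumors of that group. Their means were 0.731 and 0.634 RPKM.

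**Figure D2:**
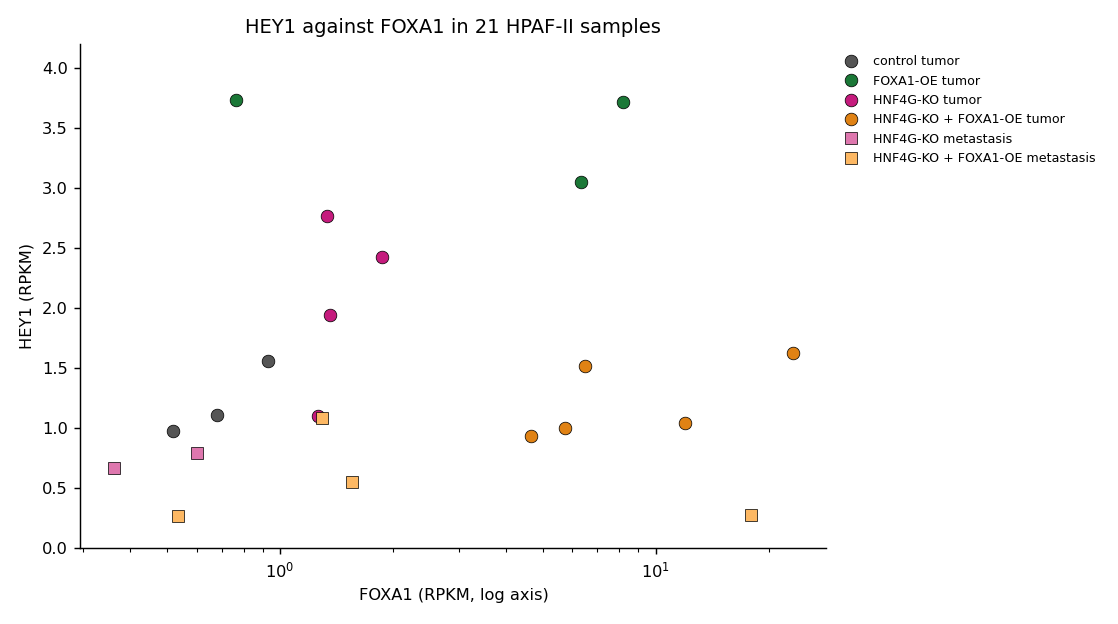
HEY1 (RPKM, vertical axis) against FOXA1 (RPKM, horizontal log axis), 1 point for each of the 21 HPAF-II samples, with circles for tumors and squares for metastases. The 3 FOXA1-OE tumors are highest for HEY1, 1 of them at 0.763 RPKM of FOXA1, while the 5 HNF4G-KO + FOXA1-OE tumors stay at or below 1.63 RPKM of HEY1 at 4.65 to 23.1 RPKM of FOXA1.

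Of the 14269 genes tested in tumors, the 5 closest to HEY1 over 14 mice by Pearson's r of log2(RPKM + 1) were HLA-DMB (r = 0.886), TRIM52 (0.876), ENSG00000260822 (0.874), KLHL3 (0.852) and PARM1 (0.846). Their Spearman's rho was 0.749 to 0.908, and r was 0.815 to 0.859 without the 2 mice farthest from the median of HEY1. These genes were chosen by r over the same mice, so such values are no independent evidence of the likeness. HLA-DMB, which encodes a subunit of the class II antigen-loading molecule HLA-DM, was at 2.00 to 3.71 RPKM in FOXA1-OE tumors and at 0.471 to 1.06 RPKM in HNF4G-KO + FOXA1-OE tumors. KLHL3, an adaptor of a ubiquitin ligase, was at 5.15 to 5.47 and at 2.27 to 4.19 RPKM in the same groups. For both, the FOXA1-OE group lay above the HNF4G-KO + FOXA1-OE group, an order that the choice by likeness to HEY1 brings with it. Within the pathway RBPJ was the closest to HEY1, with r = 0.652 and rank 154, followed by NOTCH3 (0.418), JAG1 (0.296), HES1 (0.178) and JAG2 (0.162). NOTCH1 (0.030), NOTCH2 (0.020) and NRARP (-0.290) were farther away. These correlations describe 14 mice in 4 groups and carry no test.

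RBPJ (ENSG00000168214.20, chromosome 4, 26163455 to 26435131) was at 10.3, 5.59 and 15.4 RPKM in FOXA1-OE tumors, at 6.43, 5.62 and 6.29 RPKM in control tumors and at 4.91, 6.79, 7.47 and 6.85 RPKM in HNF4G-KO tumors. HNF4G-KO + FOXA1-OE tumors had 5.10, 4.55, 3.27, 6.29 and 6.01 RPKM. FOXA1-OE thus held both the 2 highest RBPJ values and 1 just below the lowest control.

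HEY2 (ENSG00000135547.8, chromosome 6, 125747664 to 125761269) and HEYL (ENSG00000163909.7, chromosome 1, 39623435 to 39639643) did not reach the filter of a mean of 1 RPKM in any group. HEY2 was listed at 0 in 3 of 21 samples and reached 0.0892 RPKM, and HEYL was listed at 0 in 2 and reached 0.124 RPKM. By gene length these maxima are worth about 9.81 and 24.5 reads, and differences between groups were not detectable at this depth. HEYL thus remained near 0 in samples with at least 32.1 RPKM of HES1. Both windows printed above hold 2 RBPJ cores, and binding of RBPJ to them was not tested. HEY1 was kept out of the tests, and without it, HEY2 and HEYL, 7 of the 10 members were left for the comparisons that follow.

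**Figure D3:**
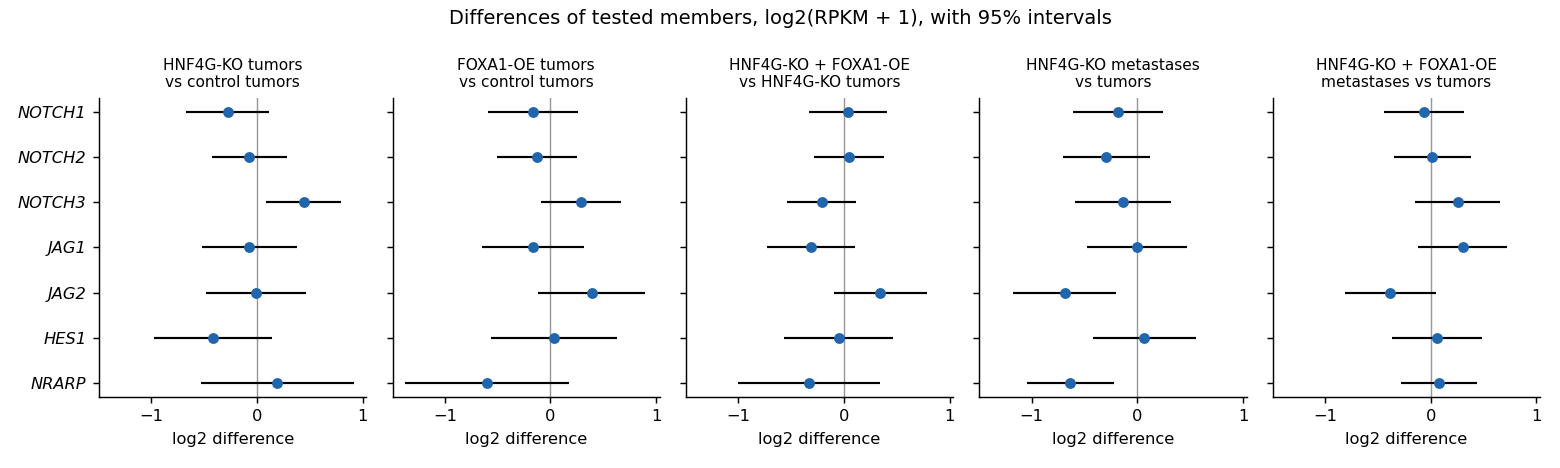
Differences in log2(RPKM + 1) (horizontal axes) for the 7 members tested (rows) in 5 comparisons, 1 panel each. Points are limma estimates and lines 95% intervals. The intervals of NOTCH3 in HNF4G-KO against control tumors and of JAG2 and NRARP in HNF4G-KO metastases against tumors leave out 0, and none of these passed adjustment over all genes.

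The comparison of HNF4G-KO with control tumors asks what HNF4G knockout does in primary tumors. By limma at an adjusted p under 0.05, 0 of 7 members were called, against 12.2% of all genes, and at an unadjusted p under 0.05 only NOTCH3 was, against 30.6% of all genes. The differences of the 7 ran from -0.42 (HES1) to 0.44 (NOTCH3), with a median of -0.07 against 0.01 for all genes tested. Groups without overlap were seen for 3 of the 7 members (NOTCH3 and NRARP higher, HES1 lower), which is no more than the 46.4% of all genes whose groups did not overlap. FOXA1-OE was compared with control tumors to follow FOXA1 alone, and here 0 of 7 members and 0% of all genes were called. At an unadjusted p under 0.05 it was also 0 of 7, against 4.57% of all genes. The largest difference was of NRARP, at -0.60 (standard error 0.36, limma adjusted p = 0.840), and came with the single value of 0.472 RPKM in FOXA1-OE tumor 3.

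For FOXA1-OE in HNF4G-KO cells, that is, HNF4G-KO + FOXA1-OE against HNF4G-KO tumors, limma again called 0 of 7 members (0.0561% of all genes), with 0 at an unadjusted p under 0.05 (20.3% of all genes). JAG2 was farthest up, at 0.35, and NRARP farthest down, at -0.33. Against control tumors, 0 of 7 members were called (4.7% of all genes), and 0 at an unadjusted p under 0.05 (19.2%), with HES1 at -0.47 (limma adjusted p = 0.358). Against FOXA1-OE tumors it was 0 of 7 in both counts (7.86% and 23.6% of all genes). These comparisons share groups with each other and are not independent. The interaction of FOXA1-OE with HNF4G-KO, that is, the difference between the effects of FOXA1-OE in the presence and absence of the knockout label, was not called for any of the 7 members (0.035% of all genes), and at an unadjusted p under 0.05 it was 1 of 7 (8.47% of all genes). That was NOTCH3, at -0.50 (95% interval -1.003 to -0.00304, limma adjusted p = 0.583), with differences of 0.29 for FOXA1-OE in control cells and -0.21 for FOXA1-OE in HNF4G-KO cells.

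In metastases the ligand JAG2 and the inhibitor NRARP were low for HNF4G-KO. JAG2 was at 3.26 and 2.64 RPKM in the 2 HNF4G-KO metastases, below the 4 primary tumors of that group (4.75 to 6.63 RPKM), a difference of -0.69 (standard error 0.22, limma adjusted p = 0.263). NRARP was at 2.26 and 3.02 RPKM there, below the 4.45 to 4.84 RPKM of the tumors, a difference of -0.64 (standard error 0.19, limma adjusted p = 0.254). Neither passed adjustment. With the mouse as a replicate block the limma adjusted p-values were 0.0910 and 0.0860. The permutation test gave its smallest value, p = 0.133, for both. The 2 metastases shared the mice of HNF4G-KO tumors 2 and 4, but the main fit and the permutation test treated them as separate. JAG2 and NRARP were the 2 of 7 members with an unadjusted p under 0.05, against 13.4% of all genes. After adjustment 0 of 7 were called by limma, against 0.0426%. Host markers differed between these 2 metastases, with a summed mural RPKM of 9.21 and 43.4, and their part was not tested.

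HNF4G-KO + FOXA1-OE metastases, of which 3 of 4 had little FOXA1, had JAG2 at 6.45, 5.59, 5.14 and 4.51 RPKM and NRARP at 4.11, 2.92, 3.99 and 3.71 RPKM, both overlapping with the tumors of the group. JAG2 differed by -0.38 (95% interval -0.81 to 0.05, limma adjusted p = 0.527) and NRARP by 0.08 (95% interval -0.29 to 0.44). JAG1 went the other way, with 19.98, 24.1, 24.8 and 23.4 RPKM in metastases and a mean of 23.4 ± 1.38 RPKM (SD, n = 3 mice) against 19.1 ± 4.03 RPKM (n = 4) in tumors, a difference of 0.30 (95% interval -0.12 to 0.72, limma adjusted p = 0.576). NOTCH3 was at 6.08, 3.03, 5.64 and 4.11 RPKM, the first being its highest value in any sample, and HES1 at 51.5, 39.6, 34.1 and 41.6 RPKM. By limma 0 of 7 members were called (0.00709% of all genes), and 0 at an unadjusted p under 0.05 (9.62%). RBPJ was lower in metastases of both groups than in their tumors by values that did not pass the test, -0.67 for HNF4G-KO (limma adjusted p = 0.259) and -0.55 for HNF4G-KO + FOXA1-OE (limma adjusted p = 0.462).

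Of 57 further genes of the pathway, 44 were tested in tumors. In HNF4G-KO against control tumors 5 of 44 were called by limma, all higher, a share near the 12.2% of all genes, and their median difference was 0.11. TLE4 and TLE2 encode Groucho-type corepressors, which carry out repression by HES proteins. TLE4 rose from 0.879 ± 0.221 RPKM (SD, n = 3) to 2.10 ± 0.101 RPKM (n = 4), by 0.73 on the log2(RPKM + 1) scale (limma adjusted p = 0.00696). TLE2 rose by 0.79 (limma adjusted p = 0.0449). MIB1 and DTX4 encode ubiquitin ligases and were the 2 genes called among the 8 tested genes of endocytosis and turnover. MIB1, which readies ligands for signaling, rose from 2.66 ± 0.465 to 5.996 ± 1.24 RPKM, by 0.92 (limma adjusted p = 0.0218), and DTX4 of the Deltex family rose by 0.66 (limma adjusted p = 0.0139). TLE4 kept its call in all 14 alternatives, DTX4 in 12, MIB1 in 9 and TLE2 in 2. Control tumors 2 and 3 were each needed for the calls of DTX4, MIB1 and TLE2, whose adjusted p was 0.0589 to 0.136 without either of them, and so were HNF4G-KO tumors 2 and 3 for MIB1 (0.0646 and 0.0639). TLE2 was lost when any single mouse of the 7 was left out.

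The lists of cleavage enzymes (9 genes), glycosyltransferases (5) and nuclear complex (7) held no called gene in that comparison. FOXA1-OE against control gave 0 of 44 calls by limma (0% of all genes) and 3 at an unadjusted p under 0.05 (4.57%), and HNF4G-KO + FOXA1-OE against HNF4G-KO gave 0 (0.0561%) and 11 (20.3%). In HNF4G-KO + FOXA1-OE against control tumors 1 of 44, DTX4, was called (4.7% of all genes), at 0.56 (limma adjusted p = 0.0382), and kept this call in 4 of 14 alternatives. It was lost under the replicate block (limma adjusted p = 0.127) and without control tumor 1, 2 or 3 or HNF4G-KO + FOXA1-OE tumor 1, 4 or 5 (0.0717 to 0.158). Against FOXA1-OE tumors 3 of 44 were called, a share near the 7.86% of all genes. LFNG, a glycosyltransferase that tunes which ligands a receptor answers to, fell from 65.8 ± 15.7 RPKM (n = 3) to 26.8 ± 10.6 RPKM (n = 4), by 1.33 on the log2(RPKM + 1) scale (limma adjusted p = 0.0106). The gamma-secretase subunit APH1B fell by 0.68 (limma adjusted p = 0.0149), a call lost without FOXA1-OE tumor 1 (0.0711). BHLHE41, a repressor related to the HES and HEY proteins, rose by 1.29 (limma adjusted p = 0.00888). All 3 were lost when only these 2 groups entered the fit (adjusted p 0.104 to 0.197). The interaction and both comparisons of metastases gave 0 calls, with 4, 8 and 4 genes at an unadjusted p under 0.05, against 8.47%, 13.4% and 9.62% of all genes.

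HES5, a target gene best known from neural progenitors, separated the samples by label. It was at 0.0808, 0.218 and 0.0932 RPKM in control tumors and at 0.140, 0.195 and 0.349 RPKM in FOXA1-OE tumors. In HNF4G-KO tumors it was at 1.48, 1.02, 0.737 and 0.883 RPKM, and in HNF4G-KO + FOXA1-OE tumors at 1.25, 0.915, 0.644, 1.15 and 1.63 RPKM. All 15 samples labeled HNF4G-KO, metastases included, were at 0.487 to 1.63 RPKM (median 1.01), above the 6 other samples at 0.0808 to 0.349 RPKM (median 0.167). Several of the 15 shared a mouse. The share of all genes that divide the samples in this way was not worked out. Between HNF4G-KO and control tumors alone, 46.4% of the genes tested did not overlap. HES5 was named after its values were seen, it rests on 6 to 122 reads, and it lies under the filter of 1 RPKM. Without that filter its difference between HNF4G-KO and control tumors was 0.83 (standard error 0.16, limma adjusted p = 0.0209), and between HNF4G-KO + FOXA1-OE and FOXA1-OE tumors also 0.83 (limma adjusted p = 0.0179). Without the filter these comparisons called 1191 and 1110 of 44505 genes. For HES5, FOXA1-OE against control was at 0.12 (limma adjusted p = 0.9748) and HNF4G-KO + FOXA1-OE against HNF4G-KO at 0.12 (limma adjusted p = 0.732). The call against control held in 3 of 7 runs that left out 1 mouse and was lost without control tumors 1, 2 or 3 or HNF4G-KO tumor 2 (adjusted p 0.0565 to 0.0706), at differences of 0.73 to 0.90. The call against FOXA1-OE tumors was lost only without FOXA1-OE tumor 1 (adjusted p = 0.0752).

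DLL4, a Delta-like ligand of vessel sprouts, showed the same division at low levels, with 0.453 to 1.14 RPKM in the 15 samples labeled HNF4G-KO and 0.159 to 0.447 RPKM in the 6 others. The limits given for HES5 on shared mice and on the share of all genes hold here too. The differences of DLL4, 0.38 for HNF4G-KO against control (limma adjusted p = 0.143) and 0.45 for HNF4G-KO + FOXA1-OE against FOXA1-OE (limma adjusted p = 0.0959), did not pass the test without the filter. NOTCH4, a receptor of endothelium, ran opposite, at 0.0710 to 0.301 RPKM in the 15 and at 0.254 to 0.329 RPKM in the 6. Between HNF4G-KO + FOXA1-OE and FOXA1-OE tumors it differed by -0.21 (limma adjusted p = 0.0426), which was called in 3 of 7 runs leaving out 1 mouse and was lost without FOXA1-OE tumor 1 or 2, or HNF4G-KO + FOXA1-OE tumor 1 or the mouse of tumors 2 and 3 (adjusted p 0.0693 to 0.114). The summed RPKM of 10 endothelial markers was 4.77 to 7.03 in control, 2.91 to 5.49 in FOXA1-OE, 6.73 to 7.21 in HNF4G-KO and 5.72 to 13.2 in HNF4G-KO + FOXA1-OE tumors, and its part was not tested. Only 1 of the 10 reached 1 RPKM, and the defining gene CDH5 was at 0.161 RPKM or less. DLL1 was at 0.165 to 1.17 RPKM with no call.

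**Figure D4:**
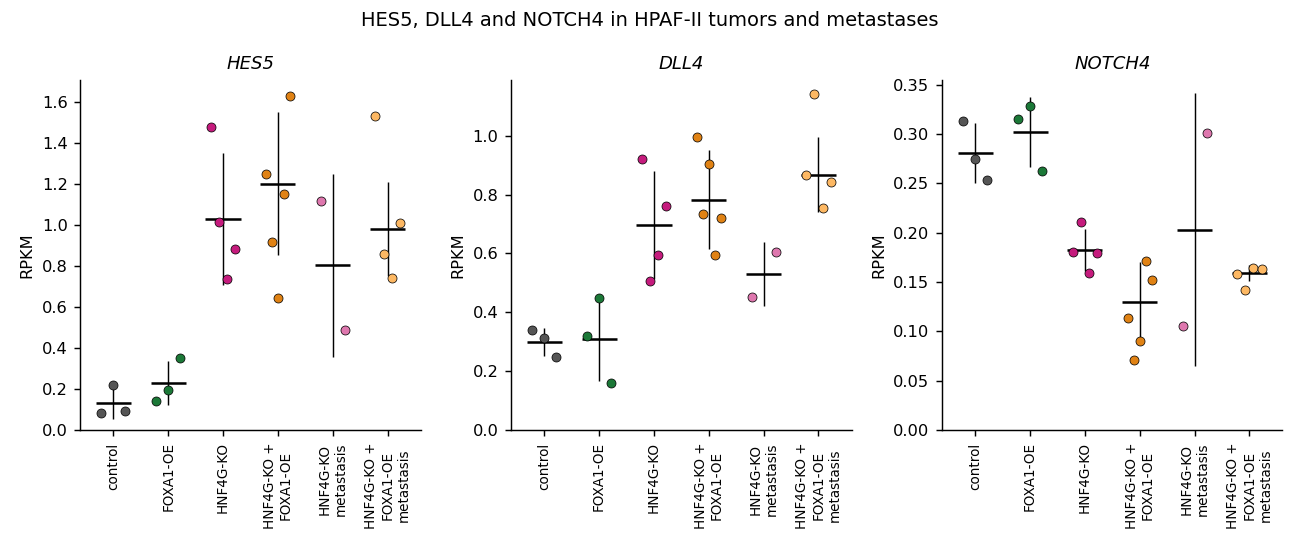
RPKM (vertical axes, each starting at 0) of HES5, DLL4 and NOTCH4 in the 21 HPAF-II samples by group (horizontal axes), 1 point a sample, with means (thick bars) and SDs over mice (thin lines). The 15 samples labeled HNF4G-KO, several of which share a mouse, lie above the 6 others for HES5 and DLL4, and all but 1 of them lie below the 6 for NOTCH4.

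In the KPC lines, which hold tumor cells without a host, receptor RNA was divided differently from that of HPAF-II samples. Species, line and growth in culture or in mice differ together here and cannot be told apart. Hes1 and Jag1 were again the highest, at medians of 52.4 and 42.3 RPKM over 8 libraries, and Hes1 was above Jag1 in 4 of 8. Notch2 took a median of 86.0% of the receptor RPKM (75.9% to 93.9%), Notch1 13.6% and Notch3 0.0798%, against the 42.7% of NOTCH3 in HPAF-II samples. Jag1 took 81.3% of the ligand RPKM, Jag2 11.9% and Dll1 6.24%. Hey1 was at 0.214 to 0.740 RPKM, Hey2 was listed at 0 in 5 of 8 libraries, and Heyl and Hes5 were listed at 0 in all 8.

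Before the KPC lines are compared, the libraries have to be taken in pairs of replicates, because for several members the order of the lines turned over between replicates 1 and 2 and replicates 3 and 4. Notch1 (ENSMUSG00000026923.15, chromosome 2, 26457903 to 26516663 on GRCm38) gave 5.25, 5.13, 2.37 and 1.87 RPKM (replicates 1 to 4) for the tumor line and 1.89, 2.31, 6.24 and 5.58 RPKM for the liver metastasis line. Jag2 had the same form, with 8.90, 7.28, 5.37 and 4.51 RPKM against 5.24, 4.38, 8.44 and 9.49 RPKM. In replicates 1 and 2 the tumor line was higher for both genes, and in replicates 3 and 4 the liver metastasis line was. Notch2 had the opposite form, at 16.8, 18.1, 37.4 and 30.0 RPKM in the tumor line and 24.5, 25.0, 26.8 and 22.9 RPKM in the liver metastasis line. Nrarp followed Notch1, with 6.01, 6.26, 4.15 and 3.62 RPKM against 4.79, 4.67, 5.02 and 4.92 RPKM. Hes1 instead split by replicate in both lines, with 68.2, 63.7, 38.0 and 35.0 RPKM in the tumor line and 62.8, 62.8, 42.1 and 39.3 RPKM in the liver metastasis line. Jag1 stayed between 38.7 and 50.2 RPKM in all 8 libraries.

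**Figure D5:**
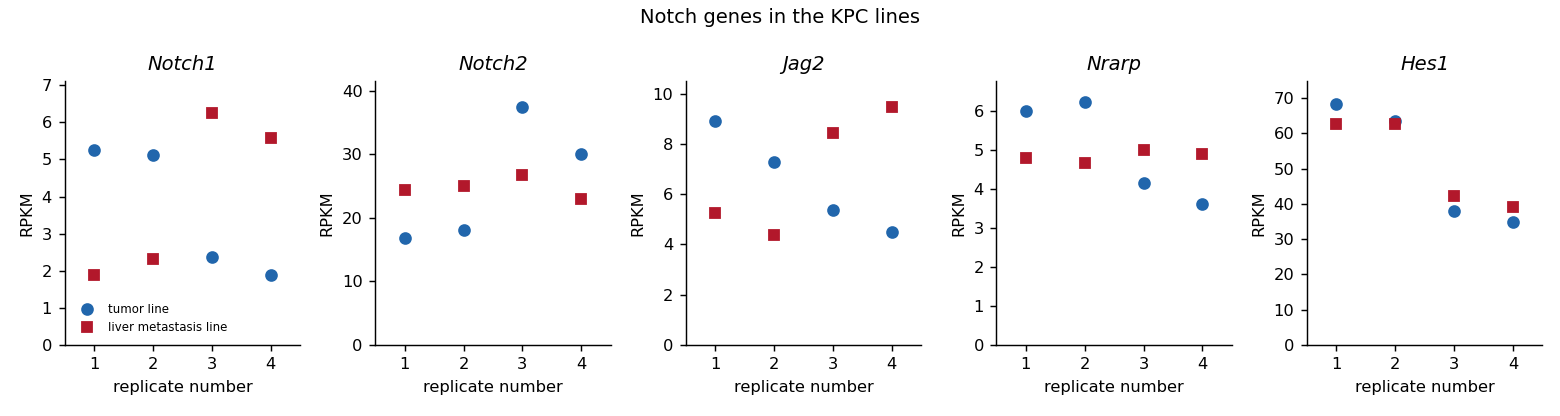
RPKM (vertical axes, each starting at 0) of 5 members in the KPC tumor line (circles) and liver metastasis line (squares) by replicate number (horizontal axes). Notch1, Jag2 and Nrarp are higher in the tumor line in replicates 1 and 2 and higher in the liver metastasis line in replicates 3 and 4, Notch2 has the reverse order, and Hes1 is lower in replicates 3 and 4 of both lines.

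With all 8 libraries, limma called 0 of the 6 members tested (0% of all 12585 genes), and 0 at an unadjusted p under 0.05 (0.866% of all genes). The differences of the liver metastasis line from the tumor line were 0.08 for Notch1 (95% interval -0.77 to 0.92), 0.03 for Notch2, 0.05 for Jag2 and -0.01 for Nrarp (limma adjusted p = 1 for each). With replicates 1 and 2 only, 4 members were called: Notch1 at -0.9999 (limma adjusted p = 0.00569), Notch2 at 0.48 (0.00939), Jag2 at -0.64 (0.0240) and Nrarp at -0.32 (0.0345). That fit called 3175 of all 12585 genes. With replicates 3 and 4 only, all 4 had the opposite sign and none was called, at 1.15 for Notch1 (limma adjusted p = 0.0839), -0.42 for Notch2, 0.75 for Jag2 and 0.29 for Nrarp. That fit called only 85 of the 12585 genes, so the counts of members called in these fits are not comparable. The difference between the pairs, added with the values known, was 2.15 for Notch1 (standard error 0.19, limma adjusted p = 0.000807) and 1.39 for Jag2 (standard error 0.21, limma adjusted p = 0.00578). For Notch2 it was -0.90 (limma adjusted p = 0.0212) and for Nrarp 0.61 (limma adjusted p = 0.0303). It was thus called for 4 of 6 members, against 20.2% of all genes, and for neither Jag1 (0.28, limma adjusted p = 0.266) nor Hes1 (0.22, limma adjusted p = 0.330). Among other genes of the pathway it was called for 12 of 44, 4 higher and 8 lower, with the largest for the glycosyltransferase Lfng, at -3.11 (limma adjusted p = 0.000772), and for Dll1, at -2.25 (limma adjusted p = 0.00633). Dll1 was at 1.504, 1.34, 8.25 and 4.33 RPKM in the tumor line and 4.39, 4.65, 2.49 and 2.24 RPKM in the liver metastasis line. The line of each library was taken from its label. For Notch1 and Jag2, replicates 3 and 4 of each line were near replicates 1 and 2 of the other line, while for Hes1 they were not. Notch2 and Nrarp turned over without matching the other line. For Notch2, 37.4 and 30.0 RPKM in tumor line replicates 3 and 4 stood against 24.5 and 25.0 RPKM in liver metastasis line replicates 1 and 2. Exchanged labels, other lines and a true difference between replicates cannot be told apart here. The names of the 2 lines are thus uncertain for every KPC value given. Whether a number stands for a culture, a passage or a day was not given in the sources used here.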

How the data were processed

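RNA was sequenced as stranded 50-base single-end mRNA libraries. Per the labels, reads were aligned with STAR 2.6.1a to GRCh38 or GRCm38 and counted with featureCounts 2.0.4 (GRCh37 in the methods of the study for human RNA-seq), and the authors deposited RPKM values in 1 table a species, with 12 columns of the mouse table that match no sample left out. At least 99.76% of low values were whole numbers of reads (tolerance 0.05), with the most common low value taken as 2 reads, which gave the depth.

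The RPKM values were transformed to log2(RPKM + 1), which understates changes of low genes. A filter kept genes averaging 1 RPKM or more across the samples fitted, and these were tested with limma 3.58.1 in R 4.3.3 (eBayes with a trend), with Benjamini-Hochberg adjustment over all of them and a threshold of 0.05, in 1 fit of the primary tumors, 1 of tumors and metastases and 1 of the KPC lines. Tumors that shared a mouse, and metastases that did, were averaged first. Exact two-sided permutation tests ran over mice (scipy 1.17.1). The fits were tested on simulated data. Nothing says that KPC replicates are separate cultures, so their p-values measure only the spread between libraries.

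The members and lists were chosen with earlier results of these data known. All 10 members were named, as were NOTCH4, DLL1, DLL3, DLL4 and RBPJ, called genes of a pathway list (at most 8 a comparison, by adjusted p) and the 5 genes closest to HEY1. The values of 1 called gene are not reported here. HES5 was added after its values were seen. Coordinates are those of GENCODE, and 58250 of 58719 human gene IDs were found in it when the version was ignored. The mouse number links metastases to tumors of the same animal (correlations of deviations -0.0264 to 0.303, median 0.260). The main fit of metastases held no term for the mouse, which was a block only in an alternative. Other numbers do not pair samples.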

Additional observations from a re-analysis of the deposited data

Results flagged for a closer look

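Of 48 pairs of member and group that were checked for a sample far from the others, 2 had one, where chance gives about 1 in 20. HES1 was at 47.5 RPKM in HNF4G-KO + FOXA1-OE tumor 1, with the other 4 tumors of the group at 33.1 to 36.6 RPKM. Hey2 was at 0.0224 RPKM in KPC tumor line replicate 1, worth 4 reads.

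The difference between the KPC lines was not the same in replicates 1 and 2 as in replicates 3 and 4. This split was chosen after the reversal had been seen, so that its test describes the pattern and is no independent evidence of it. On the log2(RPKM + 1) scale it moved by 2.15 for Notch1, 1.39 for Jag2, 0.61 for Nrarp and -0.90 for Notch2, each past the threshold by limma.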

How the results depend on the processing

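Across the 9 comparisons and the alternatives run, the number of members called stayed at 0 except in 4 cases. For HNF4G-KO against control tumors, 1 member (NOTCH3) was called with only the 2 groups in the fit and 1 (NOTCH3) with the host cell covariate. Those fits called 5592 and 2838 of 14269 genes. For HNF4G-KO + FOXA1-OE against FOXA1-OE tumors, leaving out each mouse gave 0 to 1 calls, the 1 (HES1) without FOXA1-OE tumor 3. That run called 1059 of 14269 genes. For the KPC lines, replicates 1 and 2 alone gave 4 calls, in a fit that called 3175 of 12585 genes. The added difference between KPC pairs had 2 to 4 members called when 1 library was left out. Notch2 and Nrarp were lost in 5 and 7 of these 8 runs, among them both lines' replicates 1 and 2, and Nrarp also without the RPKM filter (limma adjusted p = 0.0530), while Notch1 and Jag2 kept their calls in all 11 alternatives.

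The direction was reversed for the 4 KPC members near 0. Notch1 was at -0.9999 and Jag2 at -0.64 with replicates 1 and 2 only, and Notch2 at -0.42 and Nrarp at 0.29 with replicates 3 and 4 only. Leaving out 1 library gave differences of -0.14 to 0.30 for Notch1, -0.14 to 0.23 for Notch2, -0.10 to 0.22 for Jag2 and -0.13 to 0.087 for Nrarp. The cause was not tested.

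In the replicate block, 0 members were called in any comparison, as without it. Primary tumor numbers did not pair the samples (7 of 19 correlations over 0.1, median 0.0163), nor did KPC numbers (1 of 4). Beyond the members, TLE2 in HNF4G-KO against control tumors (limma adjusted p = 0.0505) and DTX4 in HNF4G-KO + FOXA1-OE against control tumors (0.127) were lost under the replicate block. The number of all genes called for HNF4G-KO against control tumors, 1736, ranged from 285 without control tumor 2 to 5592 with only the 2 groups in the fit. HEY1 at 53 reads and HES5 at 6 reads in their lowest library are limited by depth.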
